A study of Mus musculus with 12 samples.

Results

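The genes described here are the 2 mitochondrial rRNA genes *mt-Rnr1* and *mt-Rnr2*, the mitochondrial complex IV genes *mt-Co1*, *mt-Co2* and *mt-Co3*, and 2 nuclear copies of mitochondrial genes, *Gm29216* and *Gm28437*. They were taken by name, and all 7 of the 7 were present among the 13232 genes of the table. The set was chosen by the measured values of the libraries described here, in which *mt-Rnr1*, *mt-Rnr2* and *Gm29216* had differed between the diets, so diet differences of the 7 genes are given as a description, with no test. RNA was measured in bone marrow-derived macrophages, cells grown from mouse marrow with the growth factor M-CSF. The mice were C57B6/J with the genotype WT, on either a high-fat diet (HFD) or, as controls, a normal diet (ND), and the labels give no age or length of feeding. Every culture used here had its medium changed to a serum-free one on day 4 and spent 1 h in 1% oxygen on day 7, so both diets share the hypoxia. The labels describe 12 libraries in 4 groups of 3, and the 6 hypoxia libraries, 3 of each diet, were analysed here. The labels do not say whether the 3 libraries of a diet came from separate mice, so the spread between them, on which every p-value rests, may be technical. Values of single libraries are given in the order of replicates 1, 2 and 3 of each diet.

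Mitochondrial DNA is a small circle that is copied into long RNAs from both strands. These are cut, largely at the tRNAs that lie between the genes, into 2 rRNAs, 13 mRNAs and 22 tRNAs. *mt-Rnr1* and *mt-Rnr2* encode the RNAs of the small and large subunits of the mitochondrial ribosome, and *mt-Co1*, *mt-Co2* and *mt-Co3* the catalytic core of cytochrome c oxidase (complex IV), which passes electrons to oxygen. Pieces of mitochondrial DNA have also been inserted into nuclear chromosomes during evolution, where they are annotated as pseudogenes, and reads from the mitochondrion can match them. In macrophages the respiratory chain is known for its part in the switch between oxidative and glycolytic metabolism.

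*Gm29216* and *Gm28437* lie in 1 block of chromosome 1. In GENCODE M21, on GRCm38 (the build that the UCSC browser calls mm10), 7 unprocessed pseudogenes on the minus strand lie within chr1:24611535-24616197, 4663 bases. From the 5′ end of that strand they copy *mt-Co1* (*Gm29216*), *mt-Co2* (*Gm28661*), *mt-Atp6* (*Gm10925*), *mt-Co3* (*Gm28437*), *mt-Nd3* (*Gm28438*), *mt-Nd4l* (*Gm10222*) and *mt-Nd4* (*Gm28439*), in the order of the mitochondrial genome. The first 6 are in the table and *Gm28439* is not listed there. *Gm29216*, at chr1:24615706-24616197, covers the last 492 bases of *mt-Co1* (chrM:5328-6872), and 486 of these are identical. The 6 differences all fall within its first 13 bases. Counted from 1 at the 5′ end of *Gm29216*, with the *mt-Co1* base first, they are T3A, C4T, A6G, A7G, C9A and A13T. The first 100 bases of the copy and the matching stretch of the gene are printed here, because these are the bases by which the 2 can be told apart, with the differing bases in capitals.
Gm29216 (chr1:24616098-24616197, minus strand, GRCm38): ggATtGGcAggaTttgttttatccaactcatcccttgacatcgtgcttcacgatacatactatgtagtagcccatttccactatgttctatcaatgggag
mt-Co1 (chrM:6381-6480, plus strand, GRCm38): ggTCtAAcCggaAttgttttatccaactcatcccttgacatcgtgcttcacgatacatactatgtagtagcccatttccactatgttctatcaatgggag

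*Gm28437*, at chr1:24613189-24613971, is identical to *mt-Co3* (chrM:8607-9390) over all 783 of its bases, and *Gm28661*, *Gm10925* and *Gm10222* are likewise identical to their genes. *Gm28438* differs from *mt-Nd3* at 1 of 345 bases, T3C. The starts of an identical pair and of this near-identical pair are shown to set beside *Gm29216*, again with differing bases in capitals.
Gm28437 (chr1:24613892-24613971, minus strand, GRCm38): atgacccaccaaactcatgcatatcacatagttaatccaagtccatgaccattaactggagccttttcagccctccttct
mt-Co3 (chrM:8607-8686, plus strand, GRCm38): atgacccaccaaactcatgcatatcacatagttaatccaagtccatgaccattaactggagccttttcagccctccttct
Gm28438 (chr1:24613040-24613119, minus strand, GRCm38): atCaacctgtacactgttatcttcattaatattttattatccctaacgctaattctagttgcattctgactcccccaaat
mt-Nd3 (chrM:9459-9538, plus strand, GRCm38): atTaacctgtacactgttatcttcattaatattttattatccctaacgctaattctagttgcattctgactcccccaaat

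**Figure D1:**
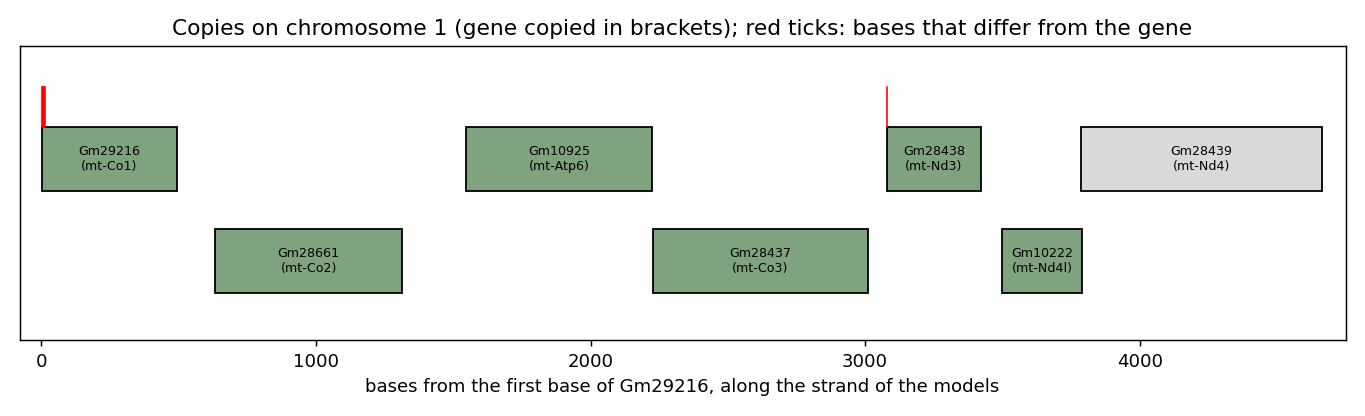
Map of the 7 annotated copies on chromosome 1, drawn to scale in bases from the first base of *Gm29216* along the strand of the models and set at 2 heights for legibility. Green boxes are copies in the table and the grey box is *Gm28439*, which is not listed. Red ticks mark the bases that differ from the mitochondrial gene, 6 at the start of *Gm29216* and 1 at the start of *Gm28438*.

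The libraries were read as single reads of 75 bases, so the 75-base windows of each gene model show how often a read could belong to another gene. Of the 418 windows of *Gm29216*, 405 (96.9%) also occur in *mt-Co1*, some of them in *Gm13340* too, a copy on chromosome 2 that is not listed in the table, and 13 occur in no other annotated transcript. All 709 windows of *Gm28437* occur in *mt-Co3*, and 709 of the 710 windows of *mt-Co3* occur in *Gm28437*. *mt-Co2* shares 607 of 610 windows, with *Gm28661* and, for some, *Gm13341*. *mt-Co1* shares 586 of 1471. The rRNAs stand apart from this, as none of the 881 windows of *mt-Rnr1* and none of the 1508 of *mt-Rnr2* occurs in any other annotated transcript. Only annotated transcripts were searched, since no genome sequence was used here. How the authors' counting assigned a read that fits both a gene and its copy is not given in the sources used here, so the levels of copies and of their genes are uncertain.

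The deposited values are normalized counts, and dividing by the value of 1 read in each library gives estimated reads. For the 9 mitochondrial genes without a copy in the table, *mt-Rnr1* and *mt-Rnr2* among them, all 54 of 54 values lay within 0.07 of a whole number of reads, the farthest at 0.0672. *mt-Nd4* was among these 9, although it shares 802 of its 1304 windows with *Gm28439*, the copy that is not listed. Of the 66 values of the 6 copies and of 5 of their genes, 5 lay that near, and the farthest was 0.494 from a whole read. *mt-Co1* could not be judged, as its values are printed without decimals. The sum of *mt-Co3* and *Gm28437*, in contrast, was within 0.0707 of a whole read in all 6 libraries, at 46407, 55989 and 35994 reads in ND and 45338, 51189 and 65932 in HFD. The sum of *mt-Nd4l* and *Gm10222* was within 0.0675. The sums for *mt-Co2* (up to 0.354), *mt-Atp6* (up to 0.495) and *mt-Nd3* (up to 0.234) were not whole.

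**Figure D2:**
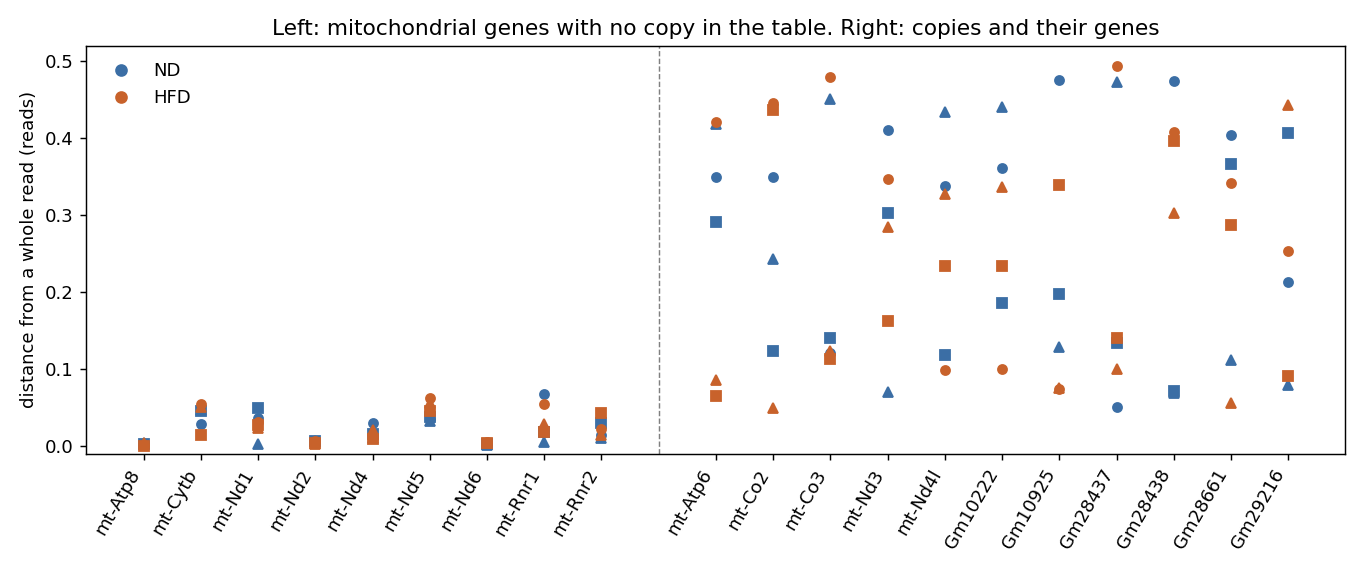
Distance of each estimated read number from the nearest whole read, for each library (blue ND, orange HFD; circles, squares and triangles are replicates 1, 2 and 3). Left of the dashed line, the 9 mitochondrial genes without a copy in the table lie at or under 0.0672, and right of it the copies and their genes reach 0.494. *mt-Co1* is left out.

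Estimated depth was 19046068 to 22804944 reads in the ND libraries and 23017107 to 24491254 in the HFD libraries, so every HFD library was deeper than every ND library before scaling. On the first principal component of 10794 genes (43.3% of the variance), ND replicate 3, at 3.43, and HFD replicate 1, at 1.33, fell between the other ND libraries (-13.5 or lower) and the other HFD libraries (11.3 and 11.4). The diets were compared for all genes with limma on log2(value + 1). No gene had a Benjamini-Hochberg adjusted p under 0.05 (0 of 13232, 0%), and 1401 (10.6%) had an unadjusted p under 0.05, with 5.4% of genes higher and 5.18% lower in HFD. For 1921 genes (14.5%) the ND and HFD values were fully separate, of which 985 (7.44%) were higher and 936 (7.07%) lower in HFD. With 1 library left out these counts moved, to 0 to 233 adjusted, 700 to 2309 unadjusted and 2493 to 4746 fully separate. All 8 macrophage markers used to check the labelled cell type were in the table, with summed values of 361574 to 415120 in ND and 359787 to 419514 in HFD. Of other cell types, 6 of 10 neutrophil markers were listed, all with a higher mean in HFD (sums of 1712 to 2455 in ND and 2109 to 3430 in HFD). Stromal collagens, 3 of 5 markers, had sums of 177 to 549 in ND and 51.8 to 337 in HFD. *Kit* was the 1 of 4 mast cell markers listed (117 to 226 in ND, 72.4 to 104 in HFD), and *Ighm* the 1 of 6 B cell markers (1889 to 3061 in ND, 1876 to 2075 in HFD). None of the T cell, erythroid or adipocyte markers was listed. The part of these cells and of depth in the results that follow was not tested.

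Both mitochondrial rRNAs had lower values in every HFD library than in any ND library. They had been chosen for their diet difference, and 7.07% of all genes were likewise lower in HFD without overlap. The values of *mt-Rnr1* (chrM:70-1024, 955 bases) were 28678, 26517 and 24242 in ND and 19621, 16423 and 16997 in HFD. The lowest ND library thus lay above the highest HFD library, HFD replicate 1. The means were 26479 ± 2219 in ND and 17680 ± 1705 in HFD (SD, n = 3 each), a log2 difference of -0.58. Without ND replicate 3 and HFD replicate 1, a pair chosen here and below after seeing the data, the difference was -0.72. For *mt-Rnr1* these are the libraries of each diet nearest to the other diet, so leaving them out had to widen the difference. The values of *mt-Rnr2* (chrM:1094-2675, 1582 bases) were 30430, 23727 and 24948 in ND and 19803, 12241 and 19110 in HFD. HFD replicate 2 was the lowest by far, HFD replicates 1 and 3 were nearer to the ND libraries, and the groups did not overlap. The means were 26368 ± 3570 in ND and 17052 ± 4180 in HFD (SD, n = 3 each), a log2 difference of -0.65, or -0.43 without HFD replicate 2. Omitting both ND replicate 3 and HFD replicate 1 gave -0.81. In bulk RNA, fewer mitochondria or cells of a type and less RNA in each cannot be told apart.

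Per length the small-subunit rRNA was the more abundant of the 2 in each library. *mt-Rnr1* per base stood at 147% to 222% of *mt-Rnr2* per base over the 6 libraries, with 167% ± 15.5 in ND and 178% ± 39.3 in HFD (SD, n = 3 each). The diets overlapped on this ratio, and the highest value was that of HFD replicate 2, where *mt-Rnr2* was lowest. Together the rRNAs made up 0.237% ± 0.0262 of all values in ND and 0.154% ± 0.0254 in HFD, again without overlap. Set against the 13 mitochondrial mRNAs of the same library, the rRNAs came to 19.6%, 13.95% and 20.1% in ND and to 15.2%, 9.92% and 10.4% in HFD. On this scale HFD replicate 1 lay above ND replicate 2, so the diets overlapped. The sum of the 13 leaves out the values listed under nuclear copies, and with those added each percentage would be lower.

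A kit had removed rRNA from the RNA (100 ng) before sequencing, so rRNA values are what was left after removal, and how much was removed from each library is not given in the sources used here. Of cytosolic rRNA the table holds little. The 5.8S rRNA gene *n-R5-8s1*, named here after its values were seen, was at 128, 108 and 131 in ND and at 59.7, 79.1 and 75.2 in HFD. Its diets did not overlap, as for 14.5% of all genes, with a log2 difference of -0.77 (limma adjusted p 0.189). *Gm15564*, the single gene in the table out of 7 rRNA names looked up, was low and overlapped (12.8 to 27.1 in ND, 6.76 to 21.6 in HFD). *Lars2*, a nuclear gene for a mitochondrial tRNA synthetase that was looked at beside these after its values were seen, was far higher and overlapped, at 15325, 8355 and 11664 in ND and 13130, 5376 and 9333 in HFD (log2 difference -0.39, limma adjusted p 0.688). The part of rRNA removal in the values of *mt-Rnr1* and *mt-Rnr2* was not tested.

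**Figure D3:**
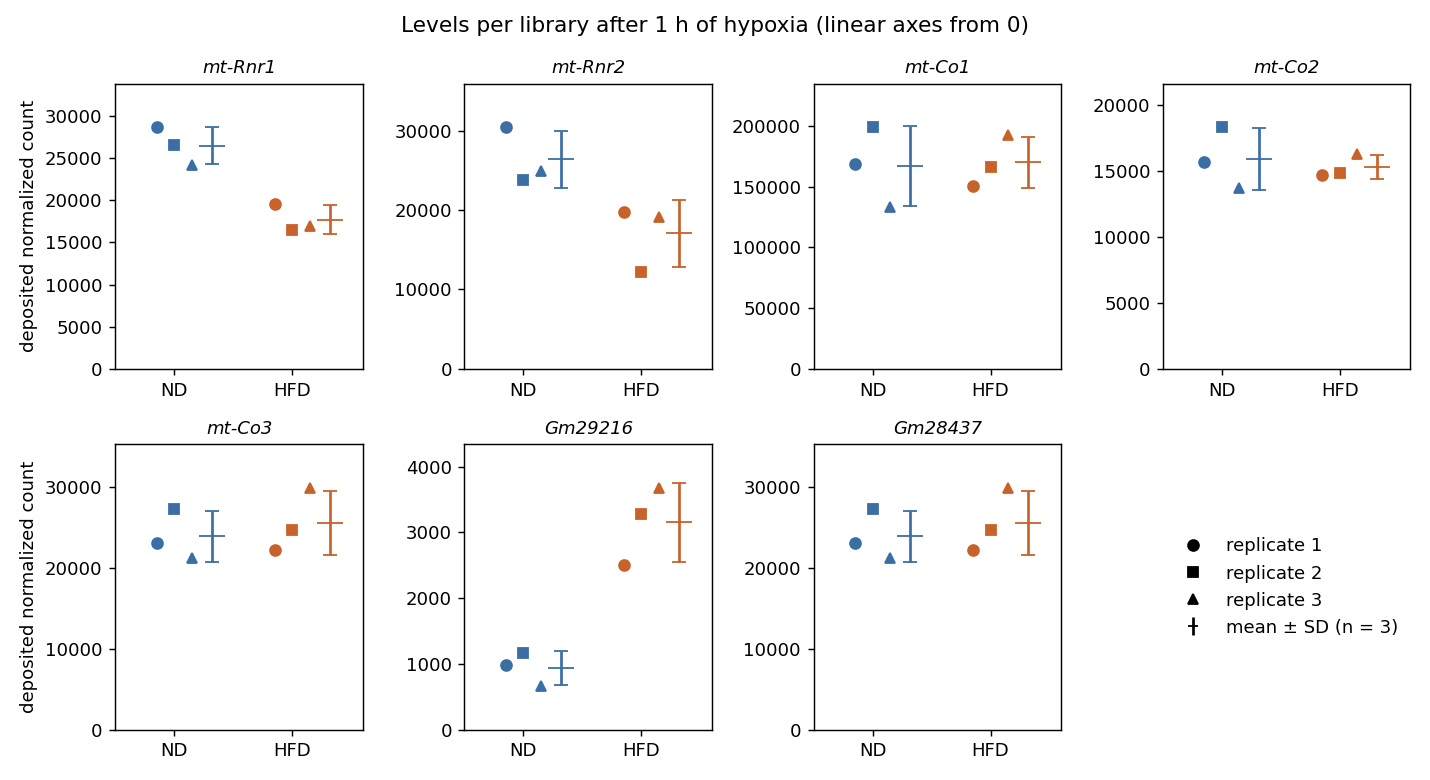
Deposited normalized count of the 7 genes in each library (vertical axes linear from 0; blue ND, orange HFD; symbols are replicates 1 to 3; bars are mean ± SD, n = 3). The diets do not overlap for *mt-Rnr1*, *mt-Rnr2* and *Gm29216*, and overlap for *mt-Co1*, *mt-Co2*, *mt-Co3* and *Gm28437*.

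The complex IV mRNAs did not follow the rRNAs. *mt-Co1* was at 169083, 199110 and 133490 in ND and at 151003, 166642 and 192635 in HFD, and it was the 13th most abundant row of the table by its mean. ND replicate 2 and HFD replicate 3 were high and ND replicate 3 low, so the spread within a diet covered the other diet. The means were 167228 ± 32849 in ND and 170093 ± 21030 in HFD (SD, n = 3 each), a log2 difference of 0.036 whose sign was negative when ND replicate 3 (-0.12), HFD replicate 3 (-0.057) or the pair of ND replicate 3 and HFD replicate 1 (-0.034) was left out. *mt-Co2* was at 15690, 18347 and 13692 in ND and 14728, 14865 and 16337 in HFD, a log2 difference of -0.047 that was 0.061 without ND replicate 2. *mt-Co3* was at 23146, 27366 and 21246 in ND and 22184, 24693 and 29930 in HFD, a log2 difference of 0.095 that was -0.023 without HFD replicate 3. Summing each gene with its copy gave 0.055 for *mt-Co1* with *Gm29216*, -0.047 for *mt-Co2* with *Gm28661* and 0.095 for *mt-Co3* with *Gm28437*.

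Since almost every read of *mt-Co2* and *mt-Co3* also fits their copies, levels per length are given for gene and copy together. *mt-Co1* with *Gm29216* ran from 86830 to 129627 normalized counts per kilobase over the 6 libraries, *mt-Co3* with *Gm28437* from 54216 to 76366 and *mt-Co2* with *Gm28661* from 44282 to 59369. Within a library, *mt-Co3* stood at 53.7% to 62.4% of *mt-Co1* and *mt-Co2* at 41.6% to 51.0%, so the order of the 3 was the same in all 6 libraries. Taken alone the 3 genes kept that order in every library, with *mt-Co1* at 86401 to 128874 per kilobase, *mt-Co3* at 27100 to 38176 and *mt-Co2* at 20018 to 26823. The rRNAs left in the libraries were at 17197 to 30029 (*mt-Rnr1*) and 7738 to 19235 (*mt-Rnr2*) per kilobase. *mt-Co1* alone was 54.5% to 58.1% of the summed values of the 13 mRNAs. That sum leaves out the values listed under the 6 copies, and with those added the share would be lower. The 6 copies held 0.217% to 0.307% of all values, and the 13 mRNAs 1.09% to 1.61%.

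*Gm29216* went the other way from the rRNAs and differed most of the 7. Its values were 980, 1164 and 663 in ND and 2503, 3273 and 3675 in HFD. The lowest HFD library, replicate 1, was above the highest ND library, replicate 2, by more than the whole range of the ND libraries. The means were 936 ± 254 in ND and 3151 ± 596 in HFD (SD, n = 3 each), a ratio of 3.37 and a log2 difference of 1.77. The gene was chosen for this difference, so its rank is a description only. In either direction 10 genes, itself included, had a difference at least as large, and the median absolute difference over all genes was 0.092. In estimated reads the row held 982, 1190 and 561 in ND and 2557, 3392 and 4048 in HFD. At 561 whole reads counting error alone would be 4.22%, but the values of this row are fractional. Leaving out 1 library at a time gave log2 differences from 1.54, when ND replicate 3 was omitted, to 1.95. Omitting both ND replicate 3 and HFD replicate 1, the pair chosen after seeing the data, gave 1.70.

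Against *mt-Co1* of the same library, *Gm29216* was at 0.580%, 0.585% and 0.496% in ND and at 1.66%, 1.96% and 1.91% in HFD. The ratio varied less within a diet than the level did: the pooled SD of its log2 value was 0.13, against 0.36 for the level. ND replicate 3, lowest in *Gm29216*, was also lowest in *mt-Co1* and so lay near the other ND libraries on the ratio. The log2 difference of the ratio was 1.74, and from 1.66 to 1.81 with 1 library left out. The 405 windows that *Gm29216* shares with other models can be filled by *mt-Co1* reads, and the reads over its 13 own windows cannot be separated from them in a table of genes.

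*Gm28437*, the identical copy, was listed slightly above *mt-Co3* in each library. Its values were 23159, 27381 and 21259 in ND and 22197, 24705 and 29941 in HFD, each 11.1 to 14.4 above *mt-Co3* of the same library, or 10.9 to 14.7 estimated reads. As a share of *mt-Co3* it was 100.04% to 100.06% in all libraries, so each of the pair was listed with practically the same number. The diets overlapped, as for *mt-Co3* (log2 difference 0.095, and -0.023 without HFD replicate 3). *Gm28437* therefore carried no value in this table that *mt-Co3* did not.

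The other copies of the block differed in how closely they followed their genes. *Gm28661*, identical to *mt-Co2*, stood at 121.2% to 121.3% of it in every library, and *Gm10925*, identical to *mt-Atp6* (a subunit of the ATP synthase), at 114%, 121% and 115% in ND and 110%, 112% and 113% in HFD. The diets did not overlap for *Gm10925* over *mt-Atp6*, by a log2 difference of -0.066. *Gm10222*, identical to *mt-Nd4l* (a complex I subunit), was at 46.0% to 75.0% with overlap. The copies with a base of their own were listed far below their genes. *Gm28438*, with 1 such base and 3 of 271 windows of its own, was at 3.69%, 10.3% and 3.37% of *mt-Nd3* in ND and 7.75%, 16.2% and 3.92% in HFD, and *Gm29216*, with 6 such bases, at the 0.496% to 1.96% given above. *Gm28438* itself ran from 116 to 393 in ND and from 186 to 585 in HFD, with replicate 2 the highest of each diet and the diets overlapping. Of the 6 copies, 1 had levels that did not overlap between diets, against 14.5% of all genes, and this was *Gm29216*, which had been chosen for that difference.

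**Figure D4:**
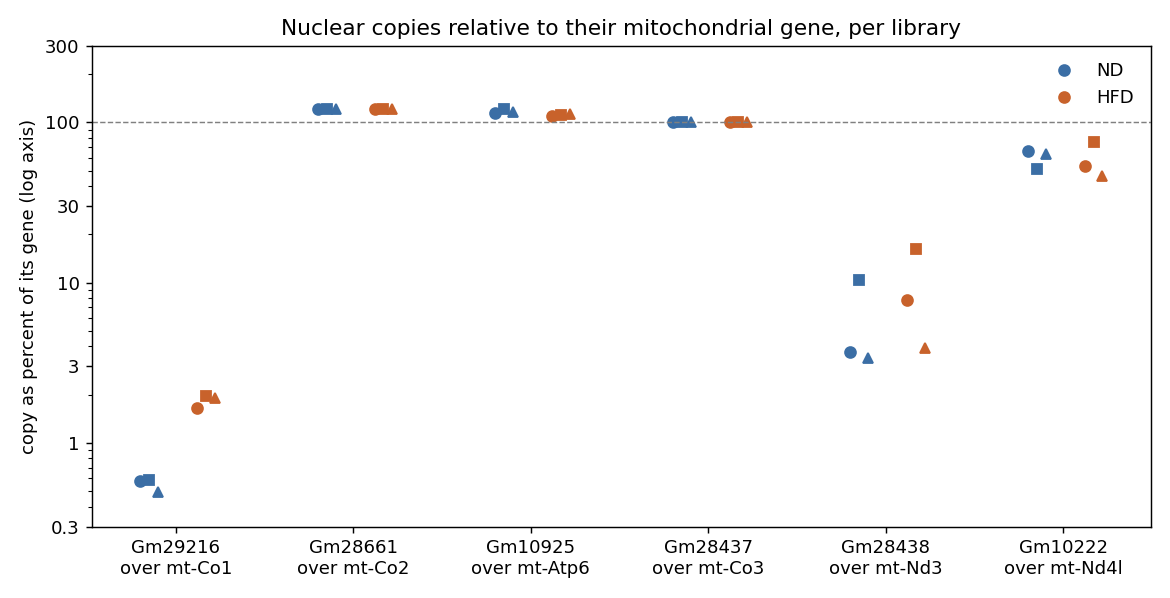
Each copy as a percentage of its mitochondrial gene in the same library, on a log axis (blue ND, orange HFD; symbols are replicates 1 to 3; dashed line at 100%). *Gm28437* lies on the line and *Gm28661* at 121%, while *Gm29216* lies near 0.5% in ND and between 1.66% and 1.96% in HFD. The percentages are not corrected for length.

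Among the other 10 mitochondrial mRNAs, 8 had a lower and 2 a higher mean of log2 values in HFD (median log2 difference -0.16, against -0.0034 for all genes), and 0 of the 10 passed limma's adjusted threshold, with 2 at an unadjusted p under 0.05, both lower, against 10.6% of all genes. The 2 most abundant were *mt-Cytb*, the mitochondrial subunit of complex III, at 18452 ± 3008 in ND and 18800 ± 3005 in HFD, and *mt-Nd5*, a complex I subunit, at 17417 ± 3458 and 15672 ± 3205 (SD, n = 3 each). *mt-Nd6*, which lies on the opposite strand to all the others, was the 1 of the 10 whose diets did not overlap, against 14.5% of all genes, at 3199, 3540 and 3605 in ND and 2827, 3091 and 2840 in HFD (log2 difference -0.24). *mt-Atp8*, an ATP synthase subunit, was at 1716, 2200 and 1313 in ND and 901, 1040 and 1714 in HFD (-0.54, with overlap). These 2 were singled out after their values were seen. Most of the mRNAs shared 1 pattern over libraries, with ND replicate 2 and HFD replicate 3 high and ND replicate 3 and HFD replicate 1 low, and together the 13 made up 1.09% to 1.61% of all values. *mt-Rnr1* did not share it, with HFD replicate 3 in the lower part of its range.

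**Figure D5:**
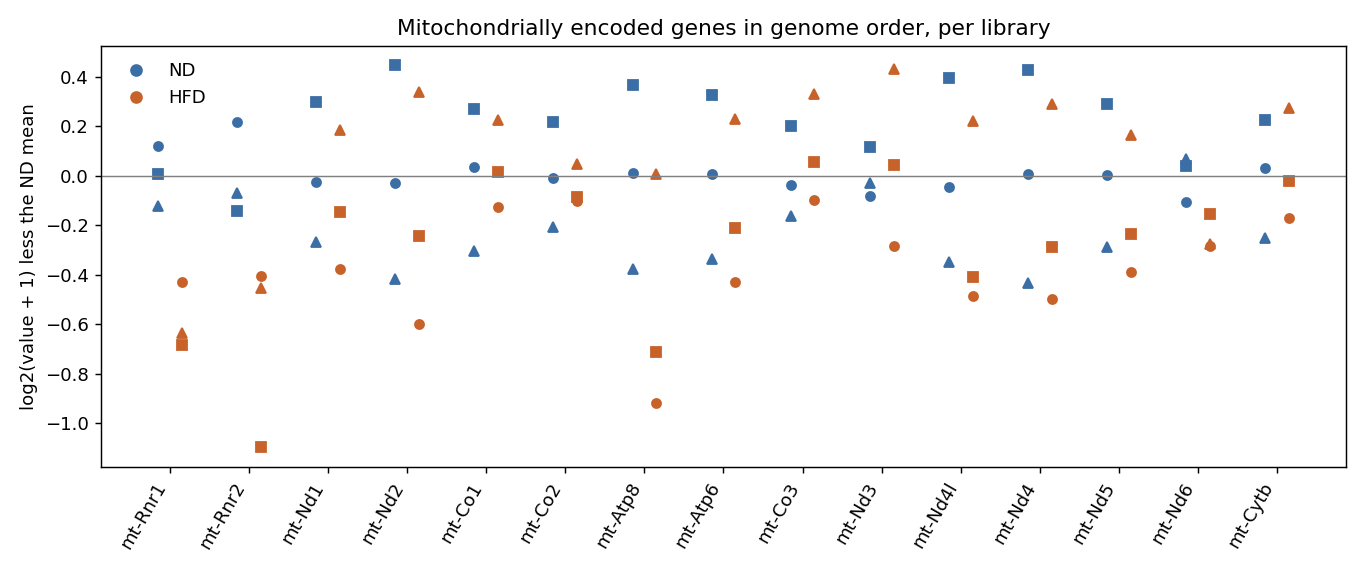
The 15 mitochondrially encoded genes of the table in genome order, each library as log2(value + 1) less the mean of the ND libraries (blue ND, orange HFD; symbols are replicates 1 to 3). All HFD points of *mt-Rnr1*, *mt-Rnr2* and *mt-Nd6* lie below all ND points, and the diets overlap for the other 12.

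Mitochondrial RNA is made and matured by proteins that nuclear genes encode. Of 27 genes for mitochondrial transcription and RNA maturation, 18 had a higher and 9 a lower mean in HFD (median log2 difference 0.033, range -0.26 to 0.42), 0 passed the adjusted threshold, and 1, *Polg2* (a subunit of the mitochondrial DNA polymerase, -0.26), had an unadjusted p under 0.05, against 10.6% of all genes. The diets did not overlap for 3 of the 27: *Ssbp1* (mitochondrial single-stranded DNA-binding protein, -0.19), *Fastkd5* (an RNA-processing factor, 0.087) and *Prorp* (the nuclease of mitochondrial RNase P, 0.14), against 14.5% of all genes. The most abundant were *Grsf1*, an RNA-granule protein, at 1447 ± 52.2 in ND and 1470 ± 53.3 in HFD, and *Lrpprc*, which stabilizes mitochondrial mRNAs, at 1369 ± 71.3 and 1388 ± 70.6 (SD, n = 3 each). Of 20 genes for rRNA modification and mitochondrial ribosome assembly, 11 had a higher and 9 a lower mean (median 0.0033), 0 passed the adjusted or the unadjusted threshold in limma (0% and 10.6% of all genes), and all overlapped, against 14.5% of all genes that did not. *Dhx30*, an RNA helicase of ribosome assembly, was at 864 ± 26.7 in ND and 880 ± 18.6 in HFD, and *Trub2*, a pseudouridine synthase, at 402 ± 15.2 and 383 ± 35.1. Of 22 complex IV assembly factors, 12 had a higher and 10 a lower mean (median 0.026), with 0 past either threshold (0% and 10.6% of all genes). *Coa5* (0.10) and *Cox20* (-0.32), 2 of the 22, did not overlap, against 14.5% of all genes, and *Cox15*, which makes the heme of complex IV, was at 836 ± 27.2 in ND and 867 ± 63.7 in HFD.

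Outside mitochondrial genes and copies, 10773 genes with a mean of at least 100 were ranked by how closely their log2 values followed a gene over the 6 libraries, as a description only. Closest to *Gm29216* were *Dtx4* (Pearson r 0.997), *Pbx3* (0.996) and *Slc35b3* (0.993). Their ranges were narrow, *Dtx4* running from 1804 to 1916 in ND and 2090 to 2193 in HFD. Closest to *mt-Rnr1* were *Eif3h*, *Gatm* and *Ifi211* (each 0.991), and to *mt-Rnr2* *C030034L19Rik* (0.994), *Ccdc163* (0.993) and *5330406M23Rik* (0.990). The 6 points share diet, depth and scaling.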

How the data were processed

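Total RNA (100 ng) was depleted of rRNA, made into stranded libraries and read as single reads of 75 bases, per the labels' protocols. The submitters' processing notes name STAR, Partek and mm10, with no versions or settings. What was deposited is a signal: gene counts after division by a library's size factor, as its values show. Between 5 and 1000, 57.0% to 58.3% of them fell within 0.02 read of a whole read at 1 common step, while other steps gave 3.96% to 3.98%. Because the rest are fractional, no count test was run, and limma on log values was used. The label NC on columns was read as ND, and column numbers as replicates.

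Log2(value + 1) was compared with limma 3.58.1 in R 4.3.3 (trend, two-sided, Benjamini-Hochberg over 13232 genes), a procedure also tested on simulated data. A filter at a mean of 1 removed none. SD is over 3 libraries, and counting error covers counting only. Copies were found with BLAST 2.17.0 against mitochondrial transcripts of GENCODE M21 (at least 80% of length). Named were the 7 genes, the other copies in the table, the 2 most abundant genes of each list, the 3 nearest in pattern, and any others as stated. Members and lists were chosen with earlier results of these data known. Same-numbered libraries had residual correlations of -0.0086, -0.037 and -0.00069. No mitochondrial tRNA was listed in the table.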

Additional observations from a re-analysis of the deposited data

How the results depend on the processing

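The differences of *mt-Rnr1*, *mt-Rnr2* and *Gm29216*, genes chosen for those differences, kept their sign in all 12 alternatives run for each. With libraries left out or another pseudocount this was fixed in advance, because their diets do not overlap. The range with 1 library left out was -0.66 to -0.52 for *mt-Rnr1*, -0.78 to -0.43 for *mt-Rnr2* and 1.54 to 1.95 for *Gm29216*. Without ND replicate 3 and HFD replicate 1 together, a setting chosen after seeing the data, *mt-Rnr1* moved from -0.58 to -0.72, more than its SD, and 590 genes had an adjusted p under 0.05, 2737 an unadjusted one and 6875 no overlap. The signs of *mt-Co1*, *mt-Co2*, *mt-Co3* and *Gm28437* turned in 3, 1, 1 and 1 of their alternatives, each time with libraries left out.

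The count of 0 genes at an adjusted p under 0.05 ranged from 0 to 233 with 1 library left out (1 without ND replicate 2, 233 without ND replicate 3, 2 without HFD replicate 1), the unadjusted count of 1401 from 700 to 2309, and the 1921 without overlap from 2493 to 4746, since fewer libraries overlap less often. Array weights gave 1133 genes and 3646 unadjusted, and the cause was not tested. The replicate block gave 31 genes, but the labels do not say whether same-numbered libraries form pairs. Other settings stayed within 1.5 times. No DESeq2 or edgeR fit was made on these fractional values. Depth limits *Gm29216* most, at 4.22% counting error in its shallowest library.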
